A study of Drosophila melanogaster with 4 samples.

Results

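Transcripts of 7 axon guidance genes were followed in RNA that co-precipitated with LARK, an RNA-binding protein, from the pharate adult brain of Drosophila melanogaster, dissected shortly before the fly leaves its pupal case. The genes were the netrins NetA and NetB, the netrin receptor fra, the Slit ligand sli, the Slit receptor robo1 and the semaphorins Sema1a and Sema2a, and every probe set that the platform annotation assigns to them was taken. This gave 5 probe sets of 5 genes, 1 each for NetB, fra, sli, robo1 and Sema1a, among 13966 probe sets and 10843 named genes without the array's controls. NetA and Sema2a had no named probe set and were not analysed here. Of the 5, 2 were bright enough to be tested, and 1, NetB, was called higher in the LARK precipitate than in total RNA. Over all tested probe sets, 2.69% were called higher. The NetB call was lost in fits without the replicate block or without the variance trend.

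Growing axons are steered by secreted and membrane-bound cues that they read through receptors on the growth cone. Netrins attract axons through receptors of the frazzled and DCC family and repel them where UNC-5 receptors take part. Slit, secreted by midline cells, repels axons that carry Robo receptors, and semaphorins act mostly as repellents through plexins. In the fly these systems are best known from the midline of the embryonic nerve cord and from the motor axons that leave it, and they act again when the visual system and the antennal lobe are wired in the pupa.

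The LARK IP group held 2 arrays of RNA recovered with an affinity-purified anti-LARK antibody, and the total RNA group held 2 arrays of RNA from a portion of the same lysates set aside before the precipitation. Each of the 2 experiments used about 1000 pooled brains of wild-type Canton-S flies, dissected by day, so each value is an average over many brains and all cell types in them. In such bulk RNA, fewer cells of a type and less RNA per cell cannot be told apart. The study's methods name mild washes, which left most RNA species of the lysate in the precipitate, and equal amounts of RNA were labelled. A signal is therefore a share of the RNA on its own array, not an amount of RNA precipitated. No array of a precipitation without the antibody was among the samples, so binding to LARK and non-specific recovery cannot be told apart here. The study reports that controls with beads only enriched no specific RNAs, without showing those data.

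The arrays were similar in their overall signals, with medians of 2.7 and 2.8. Background was set on each array as the 90th percentile of 106 probe sets of odorant and gustatory receptors and of chorion, glue and accessory gland proteins, genes with little use in the brain. It came to 5.0 and 4.95 on the LARK IP arrays and to 3.85 and 6.35 on the total RNA arrays, and between 25.4% and 40.5% of probe sets lay above it. The label of the tissue was checked with cell type markers, whose brightest probe sets were added up on each array. Neuronal markers (5 of 6 with a probe set) summed to 81.0 and 145.3 in LARK IP, against 25.3 and 77.2 in total RNA, and of these brp, a protein of the presynaptic active zone, lay under background on all 4 arrays by its brightest probe set. Glial markers (4 of 5) summed to 83.1 and 60.6 in LARK IP and to 76.9 and 45.6 in total RNA. Photoreceptor markers (3 of 4) reached 86.7 and 139.0 in LARK IP and 110.2 and 216.4 in total RNA, muscle markers (2 of 4) 44.2 and 21.8 against 41.9 and 23.6, fat body markers (3 of 4) 7.8 and 9.3 against 13.2 and 26.9, and haemocyte markers (4 of 4) 10.4 and 17.1 against 16.1 and 13.2.

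NetB (CG10521) encodes one of the 2 secreted netrins of the fly. Its probe set had signals of 114.9 and 575.3 in LARK IP, against 11.2 and 108.0 in total RNA, all of them above background. On the arrays these were percentiles 99.0 and 99.7 of all probe sets in LARK IP, and 88.1 and 99.0 in total RNA, so the lowest rank was that in total RNA 1. Within each experiment the IP signal was far above its own total RNA, by 10.3-fold in replicate 1 and 5.33-fold in replicate 2. Across experiments the groups only just failed to overlap, since the lower IP signal, that of replicate 1, was 1.06 times the higher total RNA signal, that of replicate 2. Such a separation of both IP signals from both total RNA signals was seen for 15.4% of tested probe sets.

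**Figure D1:**
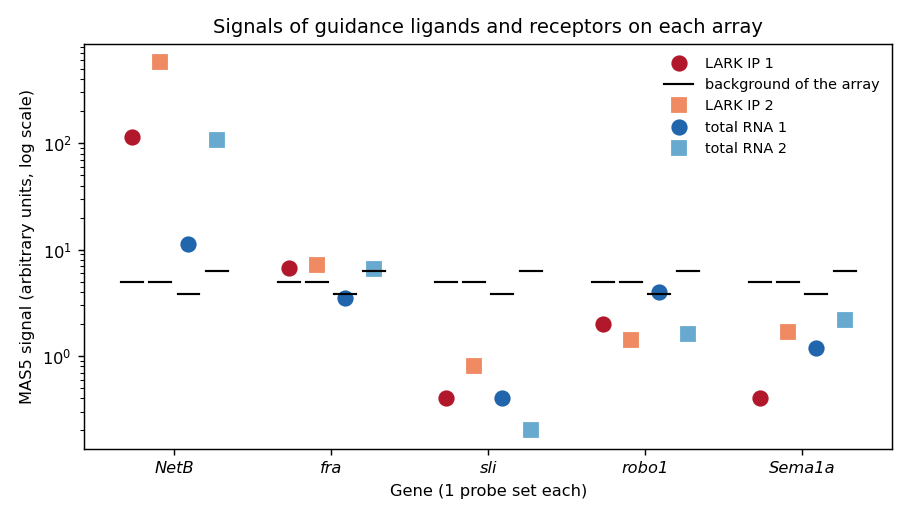
Signals of the 5 measured genes on the 4 arrays, on a log scale in the arbitrary units of MAS5; red and orange points are LARK IP, dark and light blue points total RNA, circles replicate 1 and squares replicate 2, and each short line is the background of that array. NetB lies between 11.2 and 575.3 on all arrays, fra sits at the background and sli and Sema1a lie under it everywhere.

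To find transcripts that the precipitation enriched, the ratio of LARK IP over total RNA was taken on log2(signal + 0.8) in each replicate, where 0.8 is the median lower quartile of the arrays, and tested with limma over the 3492 probe sets in the top 25% of mean log2 signal. NetB had log2 ratios of 3.27 and 2.40, a mean of 2.84 ± 0.61 (SD, n = 2), or 7.15-fold. It rose in LARK IP (limma, adjusted p = 0.000922; 95% interval of the log2 ratio 2.26 to 3.41). As background, 94 of the tested probe sets rose (2.69%) and 6 fell (0.172%). NetB held rank 7 among the 3492 by its mean ratio and rank 10 by the smaller of its ratios in the 2 replicates. An exact permutation test of 2 arrays against 2, two-sided and without regard to the pairing, cannot go below p = 0.333, the value it gave for NetB.

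The level of NetB also differed between experiments, about as much as it differed between LARK IP and total RNA. Replicate 2 had 5.01 times the signal of replicate 1 in LARK IP and 9.64 times in total RNA. These differences, 2.32 and 3.18 on the log2 scale, stood at percentiles 99.2 and 99.6 of the tested probe sets. With the replicate number left out of the fit, NetB kept its ratio of 2.84 and lost its call (adjusted p = 0.950, unadjusted p = 0.0338). Without total RNA 1, the array with the lowest NetB signal, the log2 ratio was 1.25, and without LARK IP 2, the array with the highest, it was 1.68; neither passed (limma without the block, adjusted p = 0.994 and adjusted p = 0.9998). NetB also missed the threshold without LARK IP 1 (log2 ratio 3.99, limma adjusted p = 0.963), without total RNA 2 (4.43, limma adjusted p = 0.318), and with all arrays but no variance trend (2.84, limma adjusted p = 0.179).

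Some other features of the arrays moved with NetB, and others did not. The sum of the neuronal markers was lowest in total RNA 1 and highest in LARK IP 2, as NetB was, and so were futsch, elav and fne, of which futsch gave the largest part of the sum. futsch itself rose in LARK IP (limma, adjusted p = 0.0470), while elav and fne, with log2 ratios of 1.26 and 1.36, did not pass. The elav signals were 7.0 and 12.7 in LARK IP against 1.5 and 7.2 in total RNA, where 1.5 is under background. The sum is therefore not a measure of tissue content apart from the precipitation. nSyb, with 5.7 and 10.8 in LARK IP against 6.9 and 1.4 in total RNA, was lowest in total RNA 2, and brp, with 3.7 and 1.3 against 1.2 and 3.9, was highest there. The control probe set for the 3′ part of 18S ribosomal RNA read 419.7 and 1373 in LARK IP and 250.7 and 627.0 in total RNA, so it too was higher in replicate 2 of both groups. Its counterpart for Gapdh was lower in replicate 2, with 91.1 and 48.5 in LARK IP against 109.6 and 51.4 in total RNA. That for the 5′ part of Gapdh read 4.9 and 0.2 in LARK IP against 11.5 and 5.8 in total RNA. Only its 11.5 was above background. Of the marker sums, those of glia and muscle were lower in replicate 2 of both groups, and those of photoreceptors and fat body higher. Per the headers of the arrays' experiment files, the 2 arrays of replicate 1 were hybridised on 1 day and those of replicate 2 on another. The labels name polyA RNA as the molecule of LARK IP 1 and give it as other for the remaining arrays. The part of these differences in the NetB ratio was not tested. The ratios within each day, 3.27 and 2.40, are those given above.

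**Figure D2:**
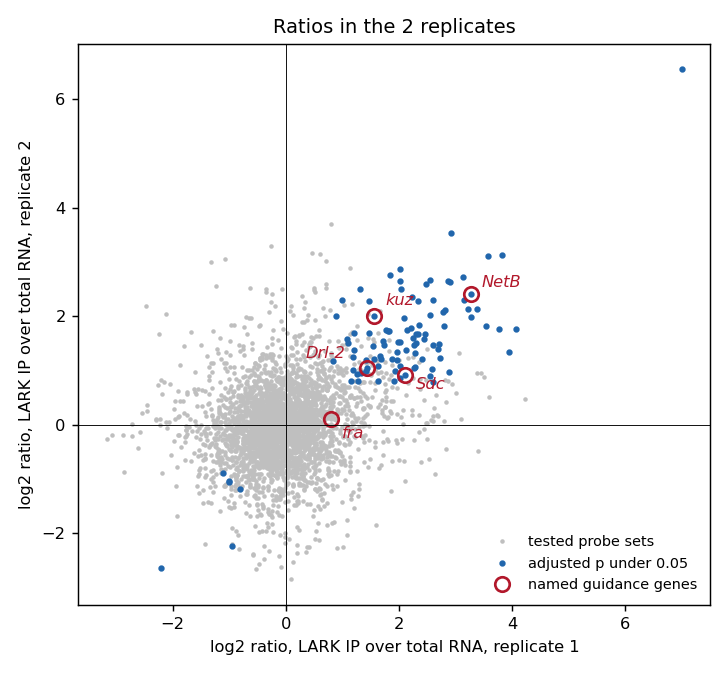
Log2 ratio of LARK IP over total RNA in replicate 1 (horizontal) and in replicate 2 (vertical) for the 3492 tested probe sets, in grey, with those of adjusted p under 0.05 in blue and named guidance genes circled in red. NetB lies at 3.27 and 2.40, near the upper right edge of the cloud, and fra at 0.80 and 0.09 inside it.

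The gene that lies between NetA and NetB in the RefSeq annotation, CG5321, did not share the pattern: its signals were 2.1 and 1.9 in LARK IP against 5.4 and 0.8 in total RNA, and only 5.4 was above background. On the far side of NetA, sbm, which encodes an amino acid transporter, read 3.2 and 0.6 in LARK IP against 0.3 and 0.4 in total RNA, all under background.

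The named genes whose pattern over the 4 arrays was most like that of NetB, by the distance between log2 signals centred on each gene's mean, were Hk, Nckx30C and Galphao. Hk (CG43388), the beta subunit of a potassium channel, lay at a distance of 0.31 and read 8.9 and 56.8 in LARK IP against 0.5 and 8.5 in total RNA, where 0.5 is under background. Nckx30C (CG18660), a sodium and calcium exchanger, lay at 0.34 with 57.9 and 226.3 in LARK IP against 5.3 and 56.6 in total RNA. Galphao (CG2204), a G protein subunit, lay at 0.62 with 63.2 and 378.8 in LARK IP against 8.4 and 107.4 in total RNA. All 3 also rose in LARK IP (limma, adjusted p = 0.0150 for Hk, 0.00404 for Nckx30C and 0.00393 for Galphao). By the way they were picked, they shared with NetB both the rise in LARK IP and the higher level in replicate 2 of both groups. Their calls therefore add nothing independent to that of NetB. A further probe set of each lacked the higher level in replicate 2 of both groups. Hk had 7.5 and 0.5 in LARK IP against 4.3 and 0.9 in total RNA, Nckx30C 7.5 and 4.1 against 6.5 and 8.0, and Galphao 27.3 and 17.3 against 12.9 and 3.1.

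The receptor that netrins attract axons through, frazzled, was close to background. The probe set of fra (CG8581) had signals of 6.7 and 7.1 in LARK IP, both above background, against 3.5 and 6.6 in total RNA, of which 3.5 was under it. Both IP signals exceeded both total RNA signals, as for 15.4% of tested probe sets, but 6.7 was barely above 6.6. Within replicate 2 the IP signal was 1.08-fold higher. The log2 ratios of 0.80 and 0.09 gave a mean of 0.45 ± 0.50 (SD, n = 2), which did not pass (limma, adjusted p = 0.799). The 95% interval of that ratio ran from -0.74 to 1.64. Its upper end lay below the lower end of the NetB interval, though both intervals rest on the block and the variance trend. Ratios within the fra interval could not be told apart at these signals. The difference between the NetB and fra ratios was not itself tested. The named genes nearest to fra in pattern were regucalcin, Zfrp8 and CG8176, at distances of 0.10 to 0.17. None of them passed, which goes with their being picked for a pattern like that of fra.

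Neither Slit nor its receptor was measured above background in the precipitate. The probe set of sli (CG43758) read 0.4 and 0.8 in LARK IP against 0.4 and 0.2 in total RNA, in the lowest 3% of all probe sets by mean log2 signal (percentile 2.90). That of robo1 (CG13521) read 2.0 and 1.4 in LARK IP against 4.0 and 1.6 in total RNA, and its 4.0 in total RNA 1, with a background of 3.85, was the only signal of both genes above background. These signals give no fold. In a fit without the filter on low signals, which covered all 13966 probe sets, sli and robo1 did not pass (limma, adjusted p = 0.888 and adjusted p = 0.970).

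Sema1a (CG18405), a transmembrane semaphorin that acts both as a ligand and as a receptor, was also under background on all 4 arrays. Its probe set read 0.4 and 1.7 in LARK IP against 1.2 and 2.2 in total RNA. Both arrays of total RNA were the higher ones within their own experiment, yet the groups overlapped, and no fold can be given (limma without the filter, adjusted p = 0.950). Low signals of sli, robo1 and Sema1a do not show that the transcripts were absent.

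Plain ratios of at least 2 in both experiments, with an IP signal in the top 15% of its array, were counted as well. NetB was the only one of the 5 genes bright enough in both IP arrays, and it passed; among all 1551 probe sets that bright, 129 passed (8.32%). With the pairing crossed, each IP array over the total RNA of the opposite experiment, NetB did not pass, and 72 of the 1551 did.

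Partners of these cues were taken from 4 lists of guidance genes. Of 51 genes listed, 41 had a named probe set and 12 of these were bright enough to be tested, with 9 of the 41 above background on all 4 arrays: unc-5, Sdc, kuz, RhoGAPp190, drl, Drl-2, Lar, Ptp99A and Ten-m. Among the 12 tested, 3 rose (Sdc, kuz and Drl-2) and 0 fell in limma with the block, against 2.6% higher and 0.173% lower over all 2884 tested genes taken with 1 probe set each. All 3 calls ended under quantile normalization (limma, adjusted p = 0.204 for Sdc, 0.0750 for kuz and 0.174 for Drl-2), without the block, without the variance trend and with any 1 array left out. The median log2 ratio of the 12 was 0.15, beside -0.04 for all tested genes. By plain ratios, 3 of the 7 list genes bright enough in both IP arrays were at least 2-fold higher in both experiments, kuz, drl and Drl-2. Over all 1551 probe sets that bright the share was 8.32%. With the pairing crossed, 0 of the 7 list genes passed.

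Both genes of the Slit and Robo list that rose encode proteins at the cell surface. Sdc encodes syndecan, a heparan sulphate proteoglycan that assists Slit signalling, and had signals of 76.1 and 88.7 in LARK IP, against 17.0 and 46.7 in total RNA. Its groups did not overlap, and its log2 ratio was 1.51 ± 0.85 (SD, n = 2; limma, adjusted p = 0.0361). kuz, the metalloprotease kuzbanian, which cleaves Robo as well as Notch, read 13.1 and 58.4 in LARK IP against 3.9 and 14 in total RNA, where the lower IP signal lay under the higher total RNA signal, so its groups overlapped. In each experiment the IP signal was nevertheless the higher one, with log2 ratios of 1.56 and 2.0 (mean 1.78 ± 0.31, adjusted p = 0.0278). The third tested gene of this list, RhoGAP93B, a GTPase-activating protein that binds Robo, had a log2 ratio of -0.70 ± 0.75 and did not pass. Sos, an exchange factor that is recruited to Robo, read 0.9 and 0.9 in LARK IP against 8.8 and 8.6 in total RNA, at least 1.64-fold lower in LARK IP, a bound because both IP signals were under background. Sos was too dim for the test; in the fit without the filter it had an unadjusted p = 0.00698 and did not pass (adjusted p = 0.438). The median log2 ratio of the 3 tested genes was 1.51, and that of all 8 measured genes of the list was -0.01.

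**Figure D3:**
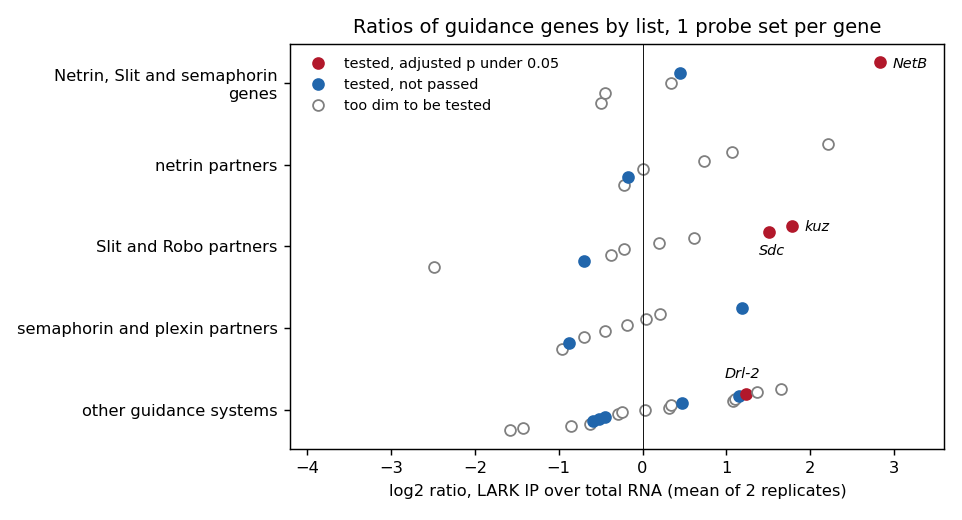
Mean log2 ratio of LARK IP over total RNA over 2 replicates, for the brightest probe set of each gene in the netrin, Slit and semaphorin genes and in the 4 lists of partners; red points passed the test, blue points were tested and did not pass, and open points were too dim to be tested. NetB at 2.84 lies to the right of all other tested genes, and open points, many of them under background, have no reliable position.

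Of the netrin partners, 6 of 7 had a probe set and unc-5 alone was tested. unc-5, which encodes the netrin receptor for repulsion, read 8.4 and 10.1 in LARK IP against 5.6 and 19.2 in total RNA. Its ratio had opposite signs in the 2 replicates and did not pass (log2 ratio -0.18 ± 0.99, adjusted p = 0.942). Its other probe sets had 3.6 and 4.6 in LARK IP against 1.3 and 2.8 in total RNA, and 7.0 and 1.0 against 1.0 and 4.5. ena, an actin regulator, read 7.0 and 8.8 in LARK IP against 2.1 and 0.4 in total RNA, where both signals were under background. It was thus at least 1.5-fold higher in LARK IP, but too dim for the test (without the filter, limma adjusted p = 0.682). Pak, a kinase activated by Rac and Cdc42, read 3.7 and 0.3 in LARK IP against 0.5 and 4.4 in total RNA, all under background, so no fold can be given.

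None of the semaphorin and plexin partners passed. Of 12 listed, 8 had a probe set and 2 were tested, RhoGAPp190 and nvy. RhoGAPp190, which acts in reverse signalling through Sema1a, read 31.2 and 39.7 in LARK IP against 5.1 and 41.9 in total RNA. Its log2 ratio of 2.44 in replicate 1 was not seen in replicate 2, with -0.08 (mean 1.18 ± 1.78, adjusted p = 0.394), and rested on the low signal of total RNA 1: without that array the log2 ratio was -0.25. Its other probe set lay between 0.3 and 0.8, under background. nvy, an anchoring protein for protein kinase A that binds plexin, read 7.1 and 1.7 in LARK IP against 7.5 and 7.2 in total RNA (log2 ratio -0.87 ± 1.14, adjusted p = 0.635). Mical, an actin-oxidising effector of plexin, read 1.7 and 1.8 in LARK IP against 3.1 and 5.5 in total RNA, all under background, as were the signals of its other 3 probe sets, and gives no fold.

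Among 21 genes of other guidance systems, 19 had a probe set, 6 were tested and 1 rose. Drl-2, a relative of derailed, rose by its brightest probe set, with 54.5 and 108.8 in LARK IP against 19.6 and 52.7 in total RNA (log2 ratio 1.24 ± 0.29, adjusted p = 0.0302). The lower IP signal exceeded the higher total RNA signal by little. Its other tested probe set did not pass, with 4.2 and 7.1 in LARK IP against 4.9 and 7.3 in total RNA (log2 ratio -0.11 ± 0.11, adjusted p = 0.972), and the third one, with 0.4 and 2.7 against 0.5 and 0.7, was under background. derailed itself (drl), the Wnt5 receptor, had a similar ratio to that of Drl-2, with 26.5 and 42.3 in LARK IP against 10.4 and 20.4 in total RNA, but did not pass (log2 ratio 1.15 ± 0.19, adjusted p = 0.0846). It passed with 4 times the pseudocount (limma, adjusted p = 0.0444) and among probe sets above background in both total RNA arrays (limma, adjusted p = 0.0493). The teneurin Ten-m had the lowest tested ratio, with 22.7 and 44.9 in LARK IP against 32.5 and 72.7 in total RNA (log2 ratio -0.59 ± 0.13, adjusted p = 0.360). The receptor tyrosine phosphatases Ptp99A, Lar and Ptp69D were tested and did not pass, with log2 ratios of 0.48 ± 0.73, -0.52 ± 0.65 and -0.45 ± 0.04. Ptp10D, too dim for the test, read 3.7 and 3.2 in LARK IP against 0.5 and 0.6 in total RNA, all under background, so no fold can be given. side, also too dim, was at least 1.28-fold lower in LARK IP by its brightest probe set, with 4.3 and 0.4 against 6.0 and 7.3, a bound because both IP signals were under background. Its other probe sets were too dim as well and did not agree in direction, with mean log2 ratios from -0.78 to 0.44. The further probe sets of Ptp99A and Ten-m were also too dim for the test.

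**Figure D4:**
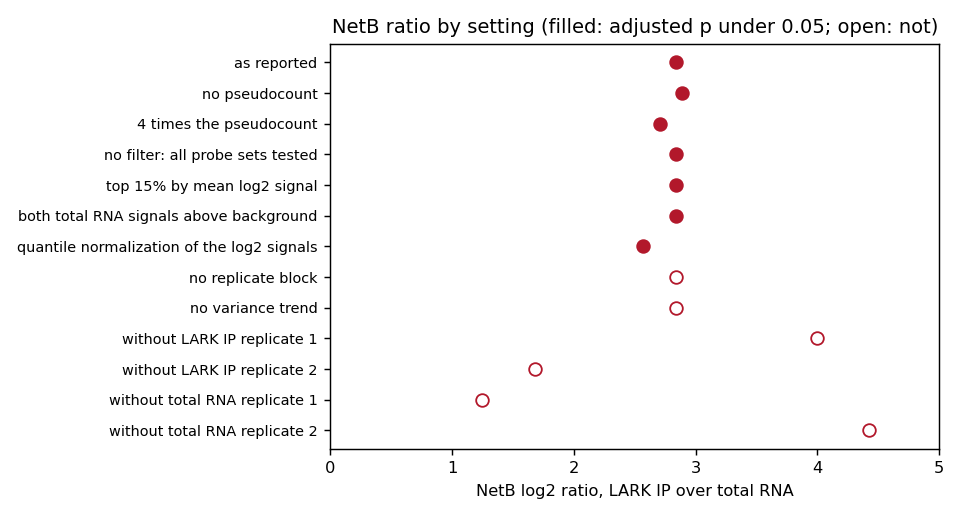
Log2 ratio of NetB in LARK IP over total RNA (horizontal) as reported and under each alternative (rows); filled points had an adjusted p under 0.05 and open points did not. The ratio stays between 2.57 and 2.89 while all 4 arrays are used, and ranges from 1.25 to 4.43 with 1 array left out.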

How the data were processed

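RNA of 2 LARK IP and 2 total RNA samples was hybridised to Affymetrix DrosGenome1 arrays, 1 array per sample. The authors deposited signal intensities, computed with Affymetrix's Microarray Suite (MAS5) and scaled on each array to 1 target intensity. Detection calls were not used here. The platform annotation named 1 gene for 12442 of 13966 probe sets, and the others were left unnamed. All 58 listed symbols were found in RefSeq (Release 6), used for names and neighbours only.

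Ratios were fitted in limma (version 3.58.1, R version 4.3.3) on log2(signal + 0.8) with trended variances and a block for the replicate number, and p-values were adjusted over all tested probe sets (Benjamini-Hochberg, called at 0.05). The block was used because the series description gives 1 lysate per experiment; the replicate differences of both groups correlated with Pearson's r of 0.36 across 3492 probe sets. With 1 residual and 7.84 prior degrees of freedom per probe set, most of the spread is borrowed, and the number of arrays limits the precision. The code of the fit was run on simulated data with the same spread for every probe set, which cannot check the variance trend. Where a group lay under background on both arrays, signals under background were raised to it and the fold is a lower bound.

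Genes named were the 7 of the rule and, from each list, those that passed or had the highest or lowest ratio, by the brightest probe set, also where these lay under background; drl, Ptp99A, Lar and Ptp69D were named after their values were seen. Likeness was measured over named probe sets. Genes that share only a prefix with the background families were left out of these. Genes and lists were chosen with earlier results of these data known. Alternatives changed the pseudocount, filter, normalization, block and trend, or left out 1 array.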

Additional observations from a re-analysis of the deposited data

How the results depend on the processing

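NetB was called under both other pseudocounts, without a filter, with the top 15% filter, among probe sets above background in both total RNA arrays and under quantile normalization (log2 ratio 2.57 to 2.89, adjusted p = 3.67e-06 to 0.0396 in limma). It was not called without the replicate block (log2 ratio 2.84, adjusted p = 0.950) or without the variance trend (2.84, adjusted p = 0.179). With 1 array left out and no block, its log2 ratio was 1.25 to 4.43 and adjusted p was at least 0.318; the lone array of a group is then assumed to vary like the others. The count of 94 probe sets higher in LARK IP became 12 under quantile normalization, 0 without the replicate block (137 at an unadjusted p under 0.05), 1 without the trend and 0 to 0 with 1 array left out. The 6 lower ones became 2 with no pseudocount, 16 with 4 times it, 11 among probe sets above background in both total RNA arrays, 0 with the top 15% filter, under quantile normalization, without the block (38 at an unadjusted p under 0.05) and without the trend, and 0 to 0 with 1 array left out. The 3 partner genes that rose, Sdc, kuz and Drl-2, became 1 with the top 15% filter (kuz) and 0 under quantile normalization, without the replicate block, without the trend and with 1 array left out (0 to 0); Sdc alone was also lost with no pseudocount (adjusted p = 0.0517), and with drl there were 4 under 4 times the pseudocount and among probe sets above background in both total RNA arrays. With the pairing crossed, 0 of the 5 genes and 72 probe sets had plain ratios of at least 2 throughout, instead of 1 and 129. With 1 array left out, the log2 ratio of RhoGAPp190 ranged from -0.25 (without total RNA 1) to 2.61, that of Ptp99A from -0.48 (without total RNA 1) to 1.43 and that of unc-5 from -0.998 to 0.65 (without total RNA 2), each against its direction with all arrays at one end. The cause of these changes was not tested. The ratio of fra kept its sign and did not pass under any alternative that tested it. At signals under background, as for sli and Sema1a on all arrays and robo1 on 3 of 4, the arrays cannot show a difference.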
